A study of Mus musculus with 4 samples.

Results

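The 9 nuclear receptor genes described here are Nr1h3, Nr1d2, Nr3c1, Nr4a1, Nr4a3, Ppard, Vdr, Esrra and Rora, chosen by gene symbol as receptors found in myeloid cells, with PPAR gamma and the receptors for retinoids left out. They are 9 of the 18193 genes with a probe set of their own on the array. The members were chosen with earlier results of these data known. All 28 probe sets annotated to exactly 1 of these symbols were used, of which 17 reached the floor described below on all 4 arrays, 6 on some arrays and 5 on none. All 9 members had a probe set that reached it on 1 array or more. Transcripts were measured in mouse bone marrow cultures that GM-CSF, a myeloid growth factor, had turned into dendritic cells (DCs), after magnetic enrichment for the integrin CD11c. LXR-DKO cells lack both liver X receptors, LXRα and LXRβ, and were cultured for 24 h with GM-CSF at 10 ng/mL plus the Toll-like receptor 4 ligand lipopolysaccharide (LPS) at 100 ng/mL (LXR-DKO LPS), or with GM-CSF alone (LXR-DKO control). Wild-type cells were treated in the same ways (WT LPS and WT control). The strain is given as C57/BL6 for both genotypes, and the number, age and sex of the mice behind each culture are not given in the labels. Each of the 4 groups was 1 array, so no difference below has a replicate check and no p-value was computed.

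Nuclear receptors are transcription factors that most often carry a pocket for a small lipid-soluble ligand and bind short DNA elements through a pair of zinc fingers. LXRα binds oxysterols and raises genes of cholesterol export, the glucocorticoid receptor and the vitamin D receptor bind hormones that restrain inflammation in DCs, and PPARδ binds fatty acids. The NR4A receptors act without a known classical ligand and are switched on quickly by signals such as LPS, while REV-ERBβ represses and RORα activates genes through the same element in the circadian clock.

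Values are MAS5 signals, a linear measure of the brightness of a probe set, and all 4 arrays had the same trimmed mean. The floor was 28.9, the median over all signals other than controls. Lower values were set to it before a ratio was taken, and the true ratio may then be larger in size, which is written "at least" for positive and "or lower" for negative log2 ratios. Each gene is represented by its brightest probe set unless others are named, and levels of different genes are not compared, because probe sets differ in how brightly they bind. The only internal error is how far log2 ratios of probe sets for the same gene differ, as a standard deviation pooled over genes. This spread was 0.45 for LXR-DKO over WT without LPS and 0.54 with LPS, 0.42 for LPS over control in LXR-DKO, 0.29 for it in WT, and 0.43 for the difference of both LPS responses.

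The arrays of the genotypes also differed in markers of cell types and in sex-linked genes. With 1 array for each group, effects of genotype and of culture cannot be told apart. Of 12 measured neutrophil markers, 8 were higher by 2-fold or more in LXR-DKO control than in WT control and 1 was lower. The same held for 4 of 8 B cell markers, for 5 of 10 markers of mast cells, basophils or eosinophils and for 11 of 16 DC markers, with 0 lower, and for 4 of 13 macrophage and monocyte markers, with 3 lower. Of all measured genes, 12.7% were higher and 9.28% lower. The summed signal of the neutrophil markers was 28165.9 in LXR-DKO LPS, 23378.8 in LXR-DKO control, 13011.6 in WT LPS and 9877.8 in WT control. Such sums are led by the brightest probe sets. Most of both WT sums came from Mmp8, at 9716.4 and 7882.0, the 1 neutrophil marker lower in LXR-DKO. Of 12 neutrophil markers, 11, 12, 5 and 7 reached the floor on LXR-DKO LPS, LXR-DKO control, WT LPS and WT control. For the B cell markers the sums were 6390.5, 3644.8, 472.9 and 529.9 in the same order of groups, and for the markers of mast cells, basophils or eosinophils they were 2779.2, 1986.5, 536.4 and 692.4. The DC markers had sums of 67942.8, 55435.0, 24389.7 and 27490.7, and the macrophage and monocyte markers of 44932.7, 51100.3, 53451.9 and 41171.7. No marker had a signal of 0, but 0 of 8 T and NK cell markers reached the floor on any array other than LXR-DKO LPS, where 3 did. The DC integrin gene Itgax encodes CD11c. It had signals of 3848.1 and 4404.5 in LXR-DKO LPS and control and of 6093.0 and 5012.2 in WT LPS and control. The cells were enriched by CD11c, so this signal is no independent check of their label. Itgax was the 1 DC marker below 0 for LXR-DKO over WT, at -0.19 without LPS and -0.66 with LPS. The DC markers above 0 were 15 without LPS and 16 with LPS. Xist, which is transcribed from the inactive X chromosome, had signals of 2090.4 and 2750.0 in LXR-DKO LPS and control and of 22.7 and 30.8 in WT LPS and control. In the same order, the Y-linked gene Eif2s3y had 384.3 and 279.6 in LXR-DKO against 721.0 and 736.6 in WT. The Y-linked gene Kdm5d had 93.2 and 56.1 against 98.1 and 126.2, and so hardly differed with LPS. The part of these differences in the results on the receptors was not tested. In RNA pooled from CD11c-enriched cells, fewer cells of a type that carries a transcript and less of it in each cell cannot be told apart.

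Of the 9 receptors, Nr4a3 stood highest in LXR-DKO relative to WT in both conditions, followed by Vdr with LPS, while Nr1h3, Nr1d2, Rora and Nr4a1 were below 0 without LPS. Of these, the order after Nr1h3 depends on the floor, since Nr4a1 was at -0.58 or lower and at -0.94 with the floor at 8.8. Esrra was the steadiest by its brightest probe set. Without LPS, 1 of 9 members, Nr4a3, was higher by 2-fold or more in LXR-DKO and 1, Nr1h3, was lower by as much, where 12.7% and 9.28% of 11728 measured genes were. With LPS, 3 of 9 members passed 2-fold upwards, Nr4a3, Vdr and Nr4a1, and 0 downwards, beside 17.8% and 8.76% of 12014 genes. For LPS over control, 3 of 9 members passed 2-fold upwards in LXR-DKO, Vdr, Nr4a1 and Rora, and 0 downwards, beside 6.23% and 1.82% of 11793 genes. In WT, LPS over control put 0 of 9 past 2-fold, where 2.93% of 11449 genes were higher and 4.79% lower. The LPS response on the log2 scale was larger in LXR-DKO than in WT by over 1 in 3 of 9 members, Nr4a1, Vdr and Nr4a3, and smaller by over 1 in 0, against 7.61% and 2.07% of 12478 genes. Nr4a3, at 1.09, fell short of 1 under 2 of 8 alternatives, at 0.99 with the arrays at the same 75th percentile and at 0.95 with the floor at 177.4. The members' median log2 ratio was 0.28 without LPS and 0.56 with LPS for LXR-DKO over WT, against 0.05 and 0.15 for all measured genes, and 0.62 in LXR-DKO and -0.04 in WT for LPS over control, against 0.02 and -0.05. These comparisons share arrays, so they are not independent of one another.

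**Figure D1:**
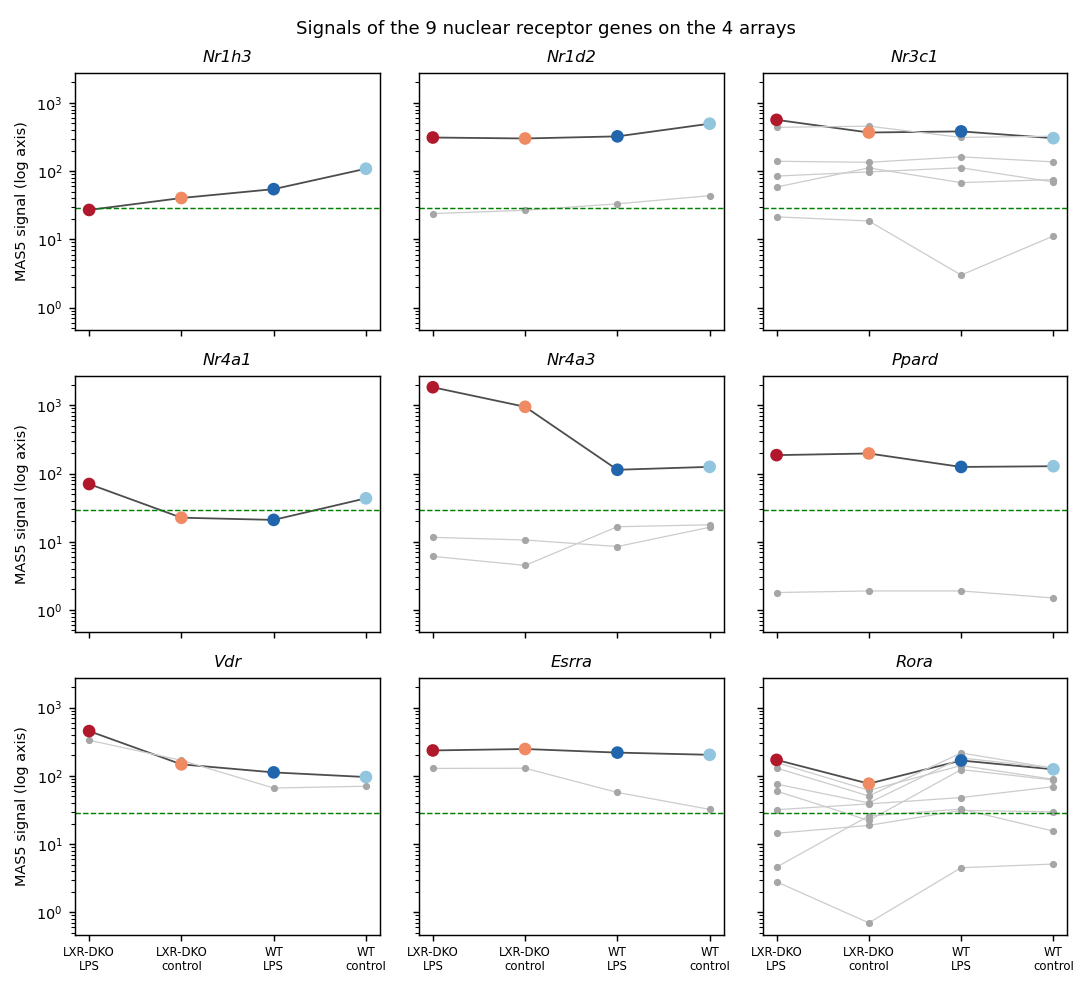
MAS5 signal on a log axis for every probe set of the 9 genes in LXR-DKO LPS, LXR-DKO control, WT LPS and WT control, 1 array each. Coloured points are the brightest probe set of a gene, grey points are its other probe sets, lines only join values of the same probe set, and the dashed line is the floor of 28.9. Nr4a3 and Vdr are highest in LXR-DKO LPS, Nr1h3 is highest in WT control, and 2 grey Nr4a3 probe sets stay below the floor throughout.

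The median over all genes also shifted with the scaling. With the arrays brought to the same 75th percentile, the median log2 ratio of all genes was -0.12 for LXR-DKO over WT without LPS and -0.11 with LPS, so ratios between genotypes were lower by about the gap to the medians given above. Genes higher made up 44.1% and 47.1% of all genes past 2-fold under that scaling, against 57.7% and 67.0% as deposited, and 55.4% with LPS after quantile normalization. For LPS over control in WT the share was 50.6% against 38.0%.

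**Figure D2:**
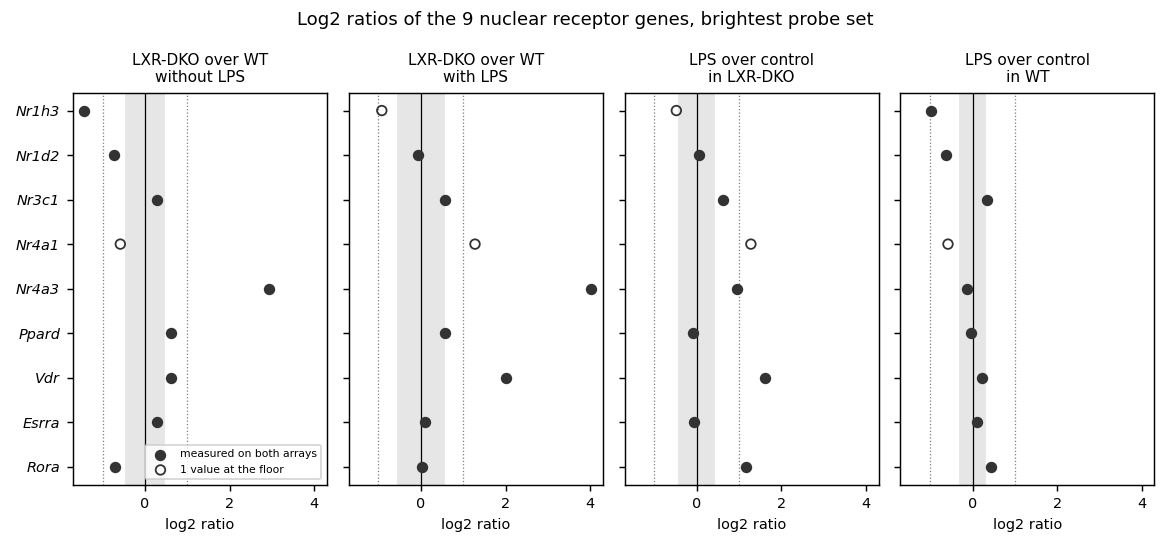
Log2 ratios of the brightest probe set of each gene in the 4 comparisons. The grey band is the spread between probe sets of the same gene, dotted lines mark 2-fold, and open circles are lower limits on the size because 1 value was at the floor. Nr4a3 stands at 2.92 without LPS and at 4.02 with LPS in the panels of LXR-DKO over WT, and no receptor passes 2-fold for LPS over control in WT.

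Nr1h3, which encodes LXRα and is a targeted gene of the knockout, had the lowest genotype ratio of the 9 members. Its signal was 27.0 in LXR-DKO LPS, 40.4 in LXR-DKO control, 54.5 in WT LPS and 108.6 in WT control. Both LXR-DKO values were below both WT values, and the LXR-DKO LPS value was below the floor. Between the genotypes, LXR-DKO over WT, its log2 ratio was -1.43 in the absence of LPS, with 4.9% of measured genes lower still, and -0.92 or lower in its presence. The ratio with LPS passed 2-fold under 4 of the 6 alternative settings that measured it, at -1.10 with the arrays at the same 75th percentile, -1.14 after quantile normalization, -1.05 after centring on the median ratio and -1.01 or lower with the floor at 8.8. In order of level, WT LPS and LXR-DKO control were neighbours that differed by 0.43 on the log2 scale, less than the spread of 0.53 between probe sets for that pair. LPS over control stood at -0.48 or lower in LXR-DKO and at -0.99 in WT, which is 3.43 times the spread. The 1 probe set of Nr1h3 may lie outside the deleted part, and where it lies was not known, so a remaining signal in LXR-DKO cells does not show intact transcript. Nr1h2, which encodes LXRβ, could not be measured here, because no probe set was annotated to that symbol alone. LXR target genes, a list that contains Nr1h3 itself, mostly did not follow it, with 11 of 18 measured above 0 without LPS. In that comparison 8 were higher by 2-fold or more in LXR-DKO and 2 lower, beside 12.7% and 9.28% of all genes. The 2 lower were Nr1h3 itself and Smpdl3a at -1.11. The median of the list was 0.42 against 0.05 for all genes.

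Nr4a3 encodes NOR1, an orphan receptor of the NR4A group, and was the member that differed most between the genotypes. Its signal was 1837.8 in LXR-DKO LPS and 950.4 in LXR-DKO control, against 113.4 in WT LPS and 125.2 in WT control. Every LXR-DKO value was far above every WT value. The signal in LXR-DKO was 7.59 times that in WT in control cultures and 16.2 times with LPS, log2 ratios of 2.92 and 4.02, which are 6.5 and 7.44 times the spread. Of all measured genes, 98.7% without LPS and 99.3% with LPS had a lower ratio. LPS over control stood at 0.95 in LXR-DKO and -0.14 in WT. This rests on 1 probe set, 1438796_at, since the other probe sets of Nr4a3, 1421080_at and 1421079_at, stayed below the floor on all arrays, at no more than 17.7.

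Nr4a1, which encodes NUR77 of the same group, was dim and had opposite LPS ratios in the genotypes. Its signal was 70.1 in LXR-DKO LPS and 22.5 in LXR-DKO control, against 20.9 in WT LPS and 43.3 in WT control. The LXR-DKO LPS array was highest, and 2 of the 4 values lay below the floor. LPS over control was at least 1.28 in LXR-DKO and -0.58 or lower in WT. LXR-DKO over WT was at least 1.28 with LPS and -0.58 or lower in control cultures. Nr4a2, which encodes NURR1 and is the remaining gene of the group, is no member but showed the same high point. Its brightest probe set had signals of 344.0 in LXR-DKO LPS, 17.3 in LXR-DKO control, 22.0 in WT LPS and 17.2 in WT control, at least 3.57 on the log2 scale for LPS over control in LXR-DKO. Of its 6 probe sets, 4 were highest in LXR-DKO LPS, 1433422_at went the other way, with 13.6 in LXR-DKO LPS and 46.5 in LXR-DKO control, and 1433423_at stayed below the floor. By its brightest probe set, each of the 3 NR4A genes was thus highest in LXR-DKO LPS.

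The promoters of Nr4a3 and Nr4a1 are shown because genes of the NR4A group are known to respond to the cAMP-regulated factor CREB. Both genes had their highest signal in LXR-DKO LPS, but so did the brightest probe sets of Vdr, Nr3c1 and Rora. The windows, from RefSeq annotation of GRCm38.p6, run from 250 bases before to 50 after a start position that, for both genes, lies inside the annotated gene and not at its first base. They are at chr4:48045055-48045354 on the plus strand for Nr4a3 and at chr15:101266596-101266895 on the plus strand for Nr4a1. Capitals mark TGACG, the core of the cAMP response element, on either strand, so that CGTCA is the same core on the other strand.
Nr4a3: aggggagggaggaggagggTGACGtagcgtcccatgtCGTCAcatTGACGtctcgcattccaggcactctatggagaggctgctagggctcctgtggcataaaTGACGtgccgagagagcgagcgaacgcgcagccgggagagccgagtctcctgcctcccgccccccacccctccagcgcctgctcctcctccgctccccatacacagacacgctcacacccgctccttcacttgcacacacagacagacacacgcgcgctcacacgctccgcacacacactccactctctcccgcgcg
Nr4a1: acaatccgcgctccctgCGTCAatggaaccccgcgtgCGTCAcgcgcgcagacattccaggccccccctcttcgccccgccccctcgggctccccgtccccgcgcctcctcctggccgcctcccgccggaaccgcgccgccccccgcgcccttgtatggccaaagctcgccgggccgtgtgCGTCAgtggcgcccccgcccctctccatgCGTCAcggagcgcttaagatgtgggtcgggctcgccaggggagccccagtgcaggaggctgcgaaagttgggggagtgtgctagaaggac
Each window holds the core 4 times. In Nr4a3 the first bases of the matches lie 231, 213, 205 and 147 bases before that start position, and in Nr4a1 they lie 233, 213, 69 and 40 bases before it. Of all 32851 promoter windows in the table, 20.8% hold the core at least once and 0.231% hold it 4 times or more. The complete palindrome TGACGTCA, which contains the core on both strands, was in neither window and is in 1.79% of all windows. Of the other members with a window, Ppard holds the core once and Nr1h3, Nr1d2, Vdr, Esrra and Rora do not hold it. Vdr and Rora thus lack it although they were also highest in LXR-DKO LPS, and Nr3c1 had no window. The nuclear receptor core AGGTCA, in 16.3% of windows, was in that of Nr1d2 and in none of the other members' windows. The longer AAAGGTCA, to which NR4A receptors can bind as monomers and which contains that core, was in none of them and is in 1.51% of all windows. These motifs were sought on both strands, and they are matches of letters, not sites shown to be bound.

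Other genes that are switched on early by signals are given beside Nr4a3. Of the NR4A-related early-response list, which includes Nr4a2, 0 of 12 measured genes were higher by 2-fold or more in LXR-DKO without LPS. On this list 6 were lower, beside 12.7% higher and 9.28% lower of all genes, and the median was -0.78 against 0.05. The lowest were Fos, a subunit gene of AP-1, at -4.58, the stress factor gene Atf3 at -2.99, the related Fosl1 at -1.81 or lower and the MAP kinase phosphatase gene Dusp1 at -1.22. Fos had signals of 136.2 and 73.3 in LXR-DKO LPS and control, against 1430.0 and 1756.8 in WT LPS and control, an order of the genotypes opposite to that of Nr4a3. With LPS, 4 of 12 were at least 2-fold higher than in control in LXR-DKO and 0 lower, beside 6.23% and 1.82% of all genes. The 4 were Nr4a2, Atf3 at 1.88, Dusp1 at 1.66 and the cAMP-response gene Crem at 1.48. In WT, 0 of 12 were higher and 2 lower, Egr3 at -1.90 and Ier2 at -1.05, beside 2.93% and 4.79% of all genes. The list's median for LPS over control was 0.78 in LXR-DKO and 0.02 in WT. For LXR-DKO over WT with LPS, 2 of 13 passed 2-fold upwards and 4 downwards, beside 17.8% and 8.76% of all genes. The 2 were Nr4a2, at least at 3.57, and Egr3 at 1.72. The LPS response was larger in LXR-DKO by over 1 for 6 of 13 and smaller for 1, beside the 7.61% and 2.07% of all genes, with a median difference of 0.49 against 1.09 for Nr4a3.

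Vdr encodes the vitamin D receptor, whose ligand calcitriol keeps DCs in a less mature state. Its brightest probe set had signals of 453.1 in LXR-DKO LPS and 147.5 in LXR-DKO control, against 112.4 in WT LPS and 96.1 in WT control, and the other probe set had 332.8 in LXR-DKO LPS and 169.1 in LXR-DKO control, against 66.3 in WT LPS and 70.5 in WT control. Both probe sets were highest in LXR-DKO LPS, and both were higher in each LXR-DKO array than in either WT array. In the brightest, however, LXR-DKO control and WT LPS differed by 0.39 on the log2 scale, less than the spread of 0.53 for that pair. LXR-DKO over WT stood at 2.01 and 2.33 with LPS in these probe sets, a 4.03-fold and a 5.02-fold difference. Without LPS the ratios were 0.62 and 1.26. The first was 0.43 at the same 75th percentile and 0.39 after quantile normalization, within the spread of 0.45. LPS over control was 1.62 and 0.98 in LXR-DKO and 0.23 and -0.09 in WT. The difference of the responses was 1.39 and 1.07, and the first is 3.24 times the spread.

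Few genes of the vitamin D system could be followed. Of 12 listed enzymes and response genes, 9 had a probe set and 4 were measured without LPS. Of these 4, 2 were past 2-fold upwards in LXR-DKO and 1 downwards, beside 12.7% and 9.28% of all genes, with a median of 1.20. The antimicrobial peptide gene Camp, a target of the receptor in human but not known as one in mouse, was at least 4.71 higher, and it also belongs to the neutrophil markers above. Thbd, which encodes thrombomodulin, was at -2.48 or lower, the sterol 27-hydroxylase gene Cyp27a1 stood at 1.82 and the LPS co-receptor gene Cd14 at 0.58. With LPS the list had 2 higher and 1 lower of 5 measured, beside 17.8% and 8.76% of all genes. Cyp24a1, which breaks down calcitriol and is the best known target of the receptor, and Cyp27b1, which makes calcitriol, were below the floor on all 4 arrays. Cyp24a1 had signals of 21.0 in LXR-DKO LPS and 9.2 in LXR-DKO control, against 21.5 in WT LPS and 16.6 in WT control, and Cyp27b1 had at most 11.9.

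Rora encodes RORα, which activates clock genes, and its brightest probe set was lowest in LXR-DKO control and above control with LPS in both genotypes. The brightest of its 9 probe sets had signals of 171.5 in LXR-DKO LPS and 76.8 in LXR-DKO control, against 168.0 in WT LPS and 124.6 in WT control. LXR-DKO control was the lowest array, and both LPS arrays differed by less than the spread. LXR-DKO over WT stood at -0.70 in this probe set without LPS, and all 7 probe sets measured were below 0, with 3 of them past 2-fold, at -1.35, -1.70 and -1.59 or lower, beside 8.39% of all measured probe sets. With LPS, 6 of 8 measured were below 0 and 2 past 2-fold downwards, beside 9.15% of all, while the brightest stood at 0.03, which turns to -0.27 with the arrays brought to the same 75th percentile or quantile normalized. LPS over control was 1.16 in LXR-DKO and 0.43 in WT. In LXR-DKO, 5 of 6 measured probe sets were above 0 and 4 past 2-fold upwards, beside 5.21% of all, and in WT 7 of 8 were above 0 and 0 past 2-fold, the largest being 0.75, beside 2.63% of all. The exception in both genotypes was 1458129_at, at -0.28 in LXR-DKO and -0.53 in WT. Among the 5 probe sets that never fell below the floor, the difference of the responses had a median of 0.61 with a standard deviation of 0.20 between probe sets.

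**Figure D3:**
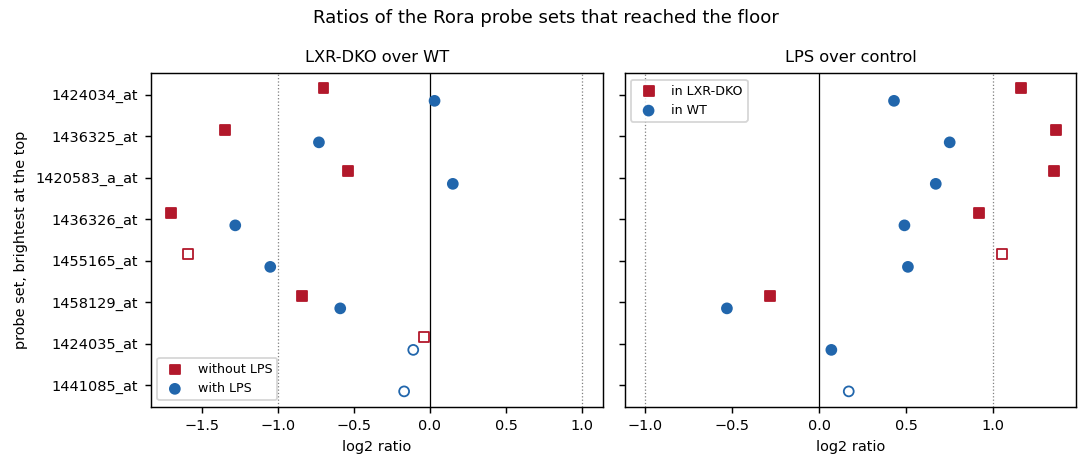
Log2 ratios of the 8 Rora probe sets that reached the floor somewhere, with the brightest at the top. The left panel gives LXR-DKO over WT in both conditions and the right panel LPS over control in LXR-DKO and in WT. Open symbols are lower limits on the size, and a missing symbol means that neither array reached the floor. All 7 values for LXR-DKO over WT without LPS lie below 0.

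Nr1d2 encodes REV-ERBβ, the repressor that competes with RORα, and its transcript was highest in WT control. Its brightest probe set had signals of 311.2 in LXR-DKO LPS, 301.3 in LXR-DKO control, 323.5 in WT LPS and 496.0 in WT control. The first 3 of these differed from their neighbours by at most 0.06 on the log2 scale, less than the spread, and WT control stood 0.62 above WT LPS, which is 2.13 times the spread. Between LXR-DKO and WT the ratio stood at -0.72 in control cultures and -0.06 with LPS, and LPS over control was 0.05 in LXR-DKO and -0.62 in WT. The other probe set, dimmer at no more than 43.7, had ratios of the same sign where it was measured, at -0.60 or lower for LXR-DKO over WT without LPS and -0.40 for LPS over control in WT. The probe set of Nr1d1, which encodes the related REV-ERBα, was below the floor on all arrays.

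Clock genes around these receptors were counted next. Of 15 measured without LPS, 2 were higher by 2-fold or more in LXR-DKO and 2 lower by as much, beside 12.7% and 9.28% of all genes, and the median was -0.16 against 0.05 for all genes. The casein kinase gene Csnk1e stood at 1.20, the repressor gene Nfil3 at 1.14, the repressor gene Bhlhe41 at -1.27 or lower and Clock, the partner of BMAL1, at -1.02. With LPS, 4 of 13 passed 2-fold upwards in LXR-DKO and 1 downwards, beside 17.8% and 8.76% of all genes. The list's median was 0.68 against 0.15. Nfil3 was at 1.93, Csnk1e at 1.22, the output gene Dbp at least at 1.22 and Bhlhe40 at 1.01, while Clock was at -1.35. LPS over control passed 2-fold in LXR-DKO for Nfil3 at 1.28 and the period gene Per2 at 1.13, 2 of 12 measured. Of all genes, 6.23% were higher there. In WT 0 of 15 passed 2-fold, beside 2.93% higher and 4.79% lower of all genes.

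Nr3c1 encodes the glucocorticoid receptor, and its 6 probe sets gave no common direction, although 4 of 5 measured were above 0 for LXR-DKO over WT without LPS. The brightest had signals of 565.0 in LXR-DKO LPS and 368.4 in LXR-DKO control, against 382.6 in WT LPS and 304.4 in WT control. LXR-DKO LPS was highest and WT LPS and LXR-DKO control differed by 0.05. LXR-DKO over WT stood at 0.28 without LPS and 0.56 with LPS, and LPS over control at 0.62 in LXR-DKO and 0.33 in WT. The genotype ratios were 0.09 and 0.27 at the same 75th percentile, and 0.14 and 0.43 after quantile normalization. Under both scalings they lie within the spread of 0.45 without LPS and 0.54 with LPS. The next brightest, 1460303_at, gave 0.49 between the genotypes in both conditions and -0.06 for LPS in both genotypes. Over the 5 probe sets that reached the floor, the median was 0.49 for LXR-DKO over WT without LPS, with 4 of 5 above 0, but -0.21 with LPS, and -0.06 for LPS over control in LXR-DKO. The signs for LXR-DKO over WT with LPS and for LPS over control in LXR-DKO therefore depend on the probe set.

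Chaperones that act on the glucocorticoid receptor had 0 of 10 measured genes past 2-fold between the genotypes without LPS. Of all genes, 12.7% were higher and 9.28% lower. With LPS 1 was higher in LXR-DKO, the immunophilin gene Fkbp5 at 1.40, beside 17.8% of all genes. Fkbp5 is also counted among the glucocorticoid response genes. LPS over control was at least 2-fold for 2 of 10 in each genotype, beside 6.23% of all genes in LXR-DKO and 2.93% in WT. The 2 were the heat shock genes Hspa1a, at least 1.69 in LXR-DKO and 1.98 in WT, and Hspa1b, at 1.43 and 1.62. Of 16 measured glucocorticoid response genes, 2 were higher by 2-fold or more in LXR-DKO without LPS and 3 lower. The shares of all genes were 12.7% and 9.28%, and the list's median was -0.42 against 0.05. The kinase gene Sgk1 stood at -2.54, the metallothionein gene Mt2 at -1.91, the decoy receptor gene Il1r2 at 1.83 and the stress gene Ddit4 at 1.37, and Dusp1, named above, was the other lower gene. LPS over control was at least 2-fold for 4 of 15 in LXR-DKO and 0 were lower, beside 6.23% and 1.82% of all genes. Ddit4 at 2.10 and Mt2 at 2.04 led the 4. In WT 2 of 16 were higher, Mt2 at 1.37 and Ddit4 at 1.24, with Il1r2 lower at -2.39. There 2.93% of all genes were higher and 4.79% lower. Many of these genes also respond to other signals, and the cultures had no added glucocorticoid according to the labels.

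Ppard encodes PPARδ, which drives fatty acid burning. As deposited it differed slightly by genotype, a difference that depends on the scaling, and hardly with LPS. Its signal was 185.9 in LXR-DKO LPS and 196.6 in LXR-DKO control, against 124.8 in WT LPS and 127.9 in WT control. Both LXR-DKO values were above both WT values. The ratio of LXR-DKO over WT stood at 0.62 in control cultures and 0.57 with LPS, which are 1.38 and 1.06 times the spread. At the same 75th percentile these ratios were 0.43 and 0.28, and after quantile normalization 0.41 and 0.27. Under both scalings they lie within the spread of 0.45 without LPS and 0.54 with LPS. LPS over control was -0.08 in LXR-DKO and -0.04 in WT. The other probe set of Ppard had a signal of at most 1.9. Of genes that PPARδ is known to raise, 0 of 10 measured were higher by 2-fold or more in LXR-DKO without LPS and 4 lower, beside 12.7% and 9.28% of all genes, with a median of -0.65 against 0.05. The 4 lower genes were Fabp4, whose product carries fatty acids, at -3.92, the lipase inhibitor gene Angptl4 at -3.05, the lipid droplet gene Plin2 at -1.86 and the catalase gene Cat at -1.39, several of which are also raised by other PPARs. With LPS, 0 of 11 were higher and 3 lower, beside 17.8% and 8.76% of all genes. Over the same arrays Pparg, the gene of PPARγ, had signals of 48.8 in LXR-DKO LPS, 83.4 in LXR-DKO control, 44.4 in WT LPS and 171.0 in WT control.

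Esrra encodes ERRα, an orphan receptor that supports mitochondrial genes, and its brightest probe set was the steadiest of the members. Signals were 235.7 in LXR-DKO LPS and 247.5 in LXR-DKO control, against 219.2 in WT LPS and 203.5 in WT control, and no neighbours in this order differed beyond the spread. Its other probe set, 1442864_at, disagreed, with 128.6 and 129.4 in LXR-DKO LPS and control against 57.1 and 32.3 in WT LPS and control. Here LXR-DKO over WT was 2.25-fold with LPS and 4.01-fold without LPS, where the brightest probe set gave 1.08-fold and 1.22-fold. The brightest probe set turned to -0.19 with LPS when the arrays were brought to the same 75th percentile, so no direction is given for it. Of 13 measured ERRα response genes, 0 were higher by 2-fold or more in LXR-DKO without LPS and 2 lower. The shares of all genes were 12.7% and 9.28%. On the ERRα list 11 lay below 0, with a median of -0.35 against 0.05. The coactivator gene Ppargc1b was at -1.10, the respiratory chain gene Sdhb at -1.04 and the cytochrome c gene Cycs at -0.72, while the fumarase gene Fh1 was at 0.82. With LPS, 1 of 14 was higher, Fh1 at 1.19, and 2 lower, Ppargc1b at -1.97 and Sdhb at -1.45. Here 17.8% of all genes were higher and 8.76% lower. For LPS over control 0 of 13 in LXR-DKO and 0 of 14 in WT passed 2-fold. Of all genes, 6.23% were higher and 1.82% lower in LXR-DKO, and 2.93% and 4.79% in WT.

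**Figure D4:**
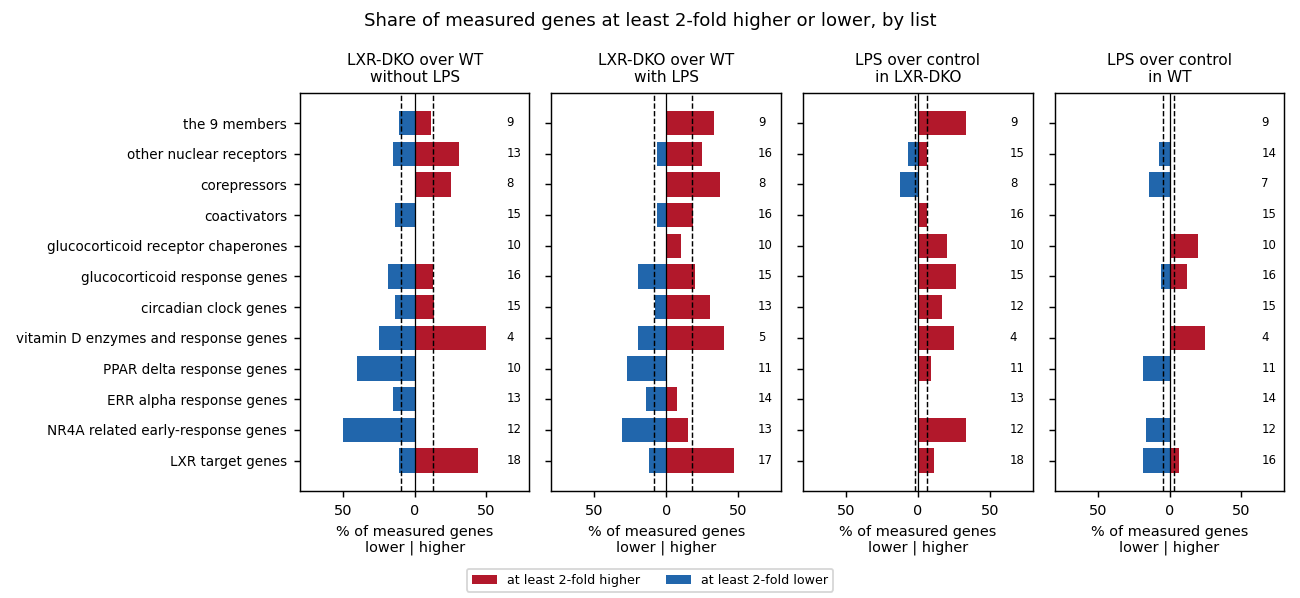
Share of measured genes at least 2-fold higher (right, red) or lower (left, blue) in each list, with the number measured at the right of each row. Dashed lines give the same shares over all measured genes. The list of PPARδ response genes has 4 of 10 lower and 0 higher for LXR-DKO over WT without LPS, and the 9 receptors have 3 of 9 higher for LPS over control in LXR-DKO and 0 in WT.

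Genes of the proteins that nuclear receptors recruit were counted in the same way. Of 8 corepressor genes with a probe set, 2 were higher by 2-fold or more in LXR-DKO without LPS and 0 lower. The shares of all genes were 12.7% and 9.28%, and the list's median was 0.88 against 0.05 for all genes. With LPS 3 were higher and 0 lower, beside 17.8% and 8.76% of all genes, with a median of 0.86 against 0.15. Hr, which encodes hairless, a corepressor known to bind the vitamin D receptor and RORα, had signals of 283.4 and 591.3 in LXR-DKO LPS and control, and was below the floor on both WT arrays. In LXR-DKO it was therefore at least 9.81-fold higher with LPS and at least 20.5-fold higher in control cultures. Nrip1 stood at 1.51 without LPS, and Tbl1x and Gps2, both of the complex around the corepressor NCoR, at 1.72 each with LPS. Of 16 coactivator genes measured with LPS, 3 passed 2-fold upwards in LXR-DKO and 1 downwards, near the 17.8% and 8.76% of all genes, namely Ncoa7 at 2.17, Ncoa3 at 1.44, the arginine methyltransferase gene Carm1 at 1.20 and Ppargc1b as given above. Without LPS 0 of 15 were higher and 2 lower, Ppargc1b and Ncoa4 at -1.08, beside 12.7% and 9.28% of all genes.

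Of 40 other nuclear receptor genes listed, 35 had a probe set, 18 of them below the floor on all arrays and 11 above it on all, where 31.4% of all genes were below it on all arrays. A signal below the floor does not show that a gene was silent. Without LPS, 4 of 13 measured were higher by 2-fold or more in LXR-DKO and 2 lower, beside 12.7% and 9.28% of all genes. The median of the list was 0.20. The thyroid hormone receptor gene Thra was lowest at -2.13, the oestrogen receptor gene Esr1 stood at 1.81, the retinoic acid receptor gene Rara at 1.39 and the orphan receptor gene Nr2c2 at 1.26. With LPS, 4 of 16 were higher and 1 lower, where 17.8% and 8.76% of all genes were. Again Esr1 stood at 1.76 and Thra at -1.57, beside the Nr4a2 value given above. Rxrb, a partner of LXR and of the vitamin D receptor, was at 1.37.

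Genes with the most similar pattern over the 4 arrays were found by the distance between log2 profiles after subtracting each gene's mean, among 9623 genes whose brightest probe set never fell below the floor. With 4 arrays many genes lie close by, and a close pattern is a description only. Nr4a3 had 5 genes within 0.5, and the nearest were Adam19 at 0.26, Kctd14 at 0.37 and Zeb1 at 0.41. Vdr had 21 within that distance, led by Birc2 at 0.17, Nectin2 at 0.20 and Nrxn3 at 0.32. Rora had 199, led by Arpin at 0.078, Rapgef2 and Gprasp1, both at 0.17. The steadier genes had far more. Nr3c1 had 1028, led by Morn4 at 0.055, Cnot4 at 0.073 and Trak1 at 0.075, and Nr1d2 had 1156, led by Snhg3 at 0.06, Zfp493 at 0.07 and Col6a2 at 0.084. Ppard had 2286, led by Hectd3 at 0.02, B4galt3 at 0.035 and Rgp1 at 0.043, and Esrra had 3015, led by Rps28 at 0.024, Syf2 at 0.033 and Rnf111 at 0.039. Adam19, the nearest to Nr4a3, had signals of 572.8 and 285.2 in LXR-DKO LPS and control, against 40.6 and 35.2 in WT LPS and control. Nr1h3 and Nr4a1 fell below the floor on some arrays and were not compared in this way.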

How the data were processed

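The deposited table holds 1 intensity value for each of 45101 probe sets on each of 4 single-colour arrays, 1 for each group. Per the submitters' processing notes the authors computed these signals with MAS5, and the version, settings and detection calls are not given in the sources used here. Per the labels, biotinylated cRNA was made from column-purified total RNA with an amplification kit. After removal of 64 control probe sets, 45037 remained. The platform annotation gives 34945 of them 1 symbol and 932 several, does not list 9160, and 34741 matched the gene table of GRCm38.p6 by gene number, which changed 0 symbols. Groups were taken from the sample titles.

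Signals were floored at their pooled median of 28.9 and log2 ratios of the brightest probe set were counted at 2-fold (a log2 ratio of 1), for members, lists and all genes, with Python 3.11.15, numpy 2.4.6, pandas 2.3.3 and matplotlib 3.10.9. A gene counts as measured when an array of the comparison reached the floor. The members and lists were chosen with earlier results of these data known. Named genes are all members, up to 4 genes of each list with the largest ratios, and the 3 nearest genes by pattern of each member that reached the floor on all arrays. Other genes named to complete a count or describe a level, among them the Nr4a2 probe sets, Cyp24a1, Cyp27b1, Pparg, Itgax, Xist, Eif2s3y and Kdm5d, were picked with their values in view. Alternatives were 3 scalings, 3 treatments of the floor and 2 choices of probe set. Counting was tested on simulated data. The number of arrays limits the precision.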

Additional observations from a re-analysis of the deposited data

Results flagged for a closer look

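Nr4a1 is listed because its LPS ratio had opposite signs in the genotypes, each larger than the spread between probe sets. That spread comes from probe sets at or above the floor on the arrays compared. Each LPS ratio of Nr4a1 has a value below the floor, so the spread does not measure its error. The signals were 70.1 in LXR-DKO LPS and 22.5 in LXR-DKO control, against 20.9 in WT LPS and 43.3 in WT control, and the difference of the log2 responses, LXR-DKO minus WT, was at least 1.86. With 1 array for each group this difference was not tested.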

How the results depend on the processing

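Of 336 ratios of single members recomputed under the 8 alternatives, 325 moved by less than the spread between probe sets, 11 moved by more, and 0 of those past 2-fold changed sign. Of 80 counts, 70 stayed within 1.5 times. At a floor of 177.4, the 75th percentile of signals, the count of members at least 2-fold higher was 1 for LPS over control in LXR-DKO and 1 for the difference of the responses, of 6 measured each, and the count lower for LXR-DKO over WT without LPS was 0 of 5. That count was also 0 when probe sets with a letter suffix were left out, where Nr1h3 has no other. At a floor of 8.8, the 25th percentile, the count lower was 1 for LPS over control in WT (Nr4a1, at -1.05) and 1 for LXR-DKO over WT with LPS (Nr1h3, at -1.01). For LXR-DKO over WT with LPS it was also 1 with the arrays at the same 75th percentile, after quantile normalization and after centring on the median ratio. With the median over probe sets, the count higher for LXR-DKO over WT without LPS was 2, as Esrra stood at 1.14. Apart from these steps that leave fewer genes or other probe sets, the cause was not tested. Over all genes, a floor of 8.8 gave 1863 genes lower for LXR-DKO over WT without LPS against 1088, 1541 higher and 560 lower for LPS over control in LXR-DKO against 735 and 215, 833 and 1235 in WT against 336 and 548, and 2223 and 924 for the difference of the responses against 949 and 258. A floor of 177.4 gave 744 higher and 611 lower without LPS against 1487 and 1088, 947 and 685 with LPS against 2141 and 1053, 324 and 114 for LPS in LXR-DKO, 188 and 150 for LPS in WT, and 281 and 148 for the difference. The same 75th percentile gave 1724 lower with LPS. Nr4a3 ranged between 2.42 and 2.92 without LPS and between 3.37 and 4.02 with LPS, and Vdr with LPS between 1.35 and 2.17. No paired analysis was possible because each group holds 1 array. Dim members such as Nr4a1 and Nr1h3 are limited by their small signal over the floor.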
